A study of Rattus norvegicus with 19 samples.

Results

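Gluconeogenesis builds glucose from pyruvate, amino acids, lactate and glycerol, and the liver is its main site. The 8 genes described here encode enzymes of that route and of the shuttles that join it to glycerol and to the redox state of the cytosol, with 1 transporter: Pc, Pck1, Fbp1, G6pc1, Slc37a4, Mdh1, Gpd1 and Gyk. They were found as every non-control array probe whose accession belongs to 1 of these genes in the RefSeq annotation. The arrays call G6pc1 by its older symbol G6pc, and Gyk carries the RefSeq symbol Gk. The genes make up 8 of the 22244 features tested, of which 10877 are named genes. They are represented by 12 probes, all well above background on all 19 arrays, and Pck1, Fbp1, G6pc1 and Slc37a4 have 2 probes each.

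Livers of 19 wildtype male Wistar rats were profiled on Agilent 2-colour arrays after 4 months on 1 of 3 diets, from 8 weeks of age. The 7 control rats ate a low fat diet with 70% of its energy from carbohydrate, 10% from fat and 20% from protein. The 6 high protein rats received 45% carbohydrate, 10% fat and 45% protein, mainly as casein, and the 6 high fat rats 20% carbohydrate, 60% fat and 20% protein. All were killed fed in the early morning, under lighting that came on in the evening. Carbohydrate differs between all 3 diets, so a change in its share cannot be told apart from the change in protein or fat that replaced it. Each array compared 1 rat's liver RNA in Cy5 with an equimolar pool of the rats' liver RNA in Cy3, without dye swaps. A value is therefore the log2 ratio of a rat to that pool for 1 probe, and it does not rank 1 gene's abundance against another's.

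In the fasting liver, glucagon and glucocorticoids raise gluconeogenic genes and insulin lowers them. Pyruvate enters through oxaloacetate, which is made in the mitochondrion and carried to the cytosol largely as malate. Glycerol enters lower in the route, through glycerol 3-phosphate, and the dehydrogenases of both entries also pass reducing equivalents between cytosol and mitochondrion.

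Between 54.2% and 67.5% of spots were well above background in Cy5 and between 47.2% and 55.1% in Cy3. The hepatocyte markers Alb, Apoa1, Ttr, Tf, Serpina1 and Fgb were all measured, with a median log2 ratio per rat between 0.11 and 0.50. Probes entered the tests if the scanner software marked Cy5 as well above background on 6 or more of the 19 arrays (the brightness filter). Of 10 lymphocyte markers 4 passed it (Cd3d, Cd3g, Cd79b and Cd8a); their median was 2.81 in control 6 and between -1.38 and -1.10 in the other 18 rats. The standard deviation of an array's log ratios was 0.44 in control 6 and 0.20 to 0.29 elsewhere. Because whole liver was used, fewer cells of a type and less RNA per cell cannot be told apart.

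Promoter sequence is shown for 3 of the genes: Mdh1, whose high fat rats lay apart from both other diets, Fbp1, which differed between the high protein and high fat diets, and Pck1, the textbook hormone-responsive gene of the pathway, which was not called. The RefSeq promoter table (build GRCr8) held 7 promoters of 6 of the 8 genes, Gpd1 and Pc being the exceptions. The stretches run from 250 bases before the annotated start to 30 bases after it, 5′ to 3′ along the gene's strand. Pck1 lies at chr3:182348322-182348601 (plus strand), Fbp1 at chr17:2213457-2213736 (plus strand) and Mdh1 at chr14:99847198-99847477 (minus strand). Capitals mark matches, on either strand, to TGACG (the core of the cAMP response element), CACGTG (the E-box), TGTTTAC (a forkhead motif) or AGGTCA (a core site of nuclear receptors).
Pck1: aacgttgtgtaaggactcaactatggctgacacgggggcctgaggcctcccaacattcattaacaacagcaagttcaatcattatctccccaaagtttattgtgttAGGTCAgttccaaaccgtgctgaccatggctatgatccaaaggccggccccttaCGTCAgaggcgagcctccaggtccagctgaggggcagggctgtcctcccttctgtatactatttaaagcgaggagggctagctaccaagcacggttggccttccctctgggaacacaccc
Fbp1: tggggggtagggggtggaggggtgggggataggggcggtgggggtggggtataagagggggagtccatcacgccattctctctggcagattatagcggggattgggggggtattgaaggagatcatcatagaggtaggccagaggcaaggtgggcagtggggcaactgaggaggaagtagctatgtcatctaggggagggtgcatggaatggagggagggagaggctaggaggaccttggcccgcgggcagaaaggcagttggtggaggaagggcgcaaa
Mdh1: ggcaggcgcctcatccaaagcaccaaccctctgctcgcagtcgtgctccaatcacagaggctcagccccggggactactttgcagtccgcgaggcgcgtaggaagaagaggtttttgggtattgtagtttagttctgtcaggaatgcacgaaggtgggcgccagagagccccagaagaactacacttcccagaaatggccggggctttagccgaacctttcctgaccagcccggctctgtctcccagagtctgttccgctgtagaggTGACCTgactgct
The Pck1 stretch held AGGTCA starting 144 bases before the start and TGACG, on the opposite strand, 90 bases before it. Mdh1 held 1 AGGTCA on the opposite strand, 17 bases past the start, and Fbp1 held none of the 4 motifs. Over the full 300-base windows TGACG was found in 4 of the 7 promoters (1 of Pck1, both of Slc37a4 and 1 of Gyk) and in 21.2% of the 33469 promoters in the table. The 2 Slc37a4 windows overlap and share 1 of their matches. AGGTCA was found in 3 of the 7 (Pck1, G6pc1 and Mdh1) against 16.2% of all promoters. CACGTG was in none of the 7 (6.42% of all) and TGTTTAC in none (3.78%). No 2 matches overlapped within a promoter. These are letter matches in a short window and say nothing about binding.

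High fat livers were set against control livers to ask how expression differs when fat takes the place of most carbohydrate. Mdh1 and Gpd1, the cytosolic malate and glycerol 3-phosphate dehydrogenases, fell by 0.67 ± 0.12 and 0.60 ± 0.12 (log2, SE, n = 6 high fat and 7 control rats). The 5 genes of the path from pyruvate to free glucose and the glycerol kinase gene Gyk did not pass the test. So 2 of 8 genes were called lower and none higher by limma's moderated test with Benjamini-Hochberg adjustment over all features, at an adjusted p under 0.05. Over all 22244 features 3.63% were called, 1.79% lower and 1.84% higher. The median difference of the 8 genes was -0.14, against -0.008 over all features.

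High protein livers were set against control livers to ask the same of protein in place of part of the carbohydrate. None of the 8 genes was called, where 0.414% of all features were (0.274% higher and 0.139% lower). No member's high protein and control rats were fully separated; 0.503% of features were, with high protein higher, and 0.285% with it lower. At an unadjusted p under 0.05, 3 of the 8 differed in the same test: Fbp1 was higher, and Pc and Slc37a4 were lower. That looser limit was met by 3176 of all 22244 features. The median difference of the 8 was -0.18, against -0.010 over all features. The authors' deposited values, put through the same model, also called none of the 8.

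Set directly against each other, the high protein and high fat livers differed in 3 of the 8 genes. Fbp1, Mdh1 and Gpd1 were higher in the high protein rats, by 0.43 ± 0.10, 0.82 ± 0.12 and 0.56 ± 0.13 (log2, SE, n = 6 and 6). These diets met on slide 4 alone, and with slide as a fixed block in the model only Mdh1 of the 3 was called. No member was called lower; of all features 7.02% were called, 3.62% higher and 3.39% lower. The median over the 8 genes was 0.15, against -0.003 over all features. The 3 comparisons reuse the same 19 rats, and both comparisons with control share the 7 control rats, so they are not independent of each other. By limma's F test over the 3 diets the same 3 genes passed (adjusted p = 0.000388 for Mdh1, 0.00788 for Gpd1 and 0.0257 for Fbp1), as did 6.57% of all features.

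**Figure D1:**
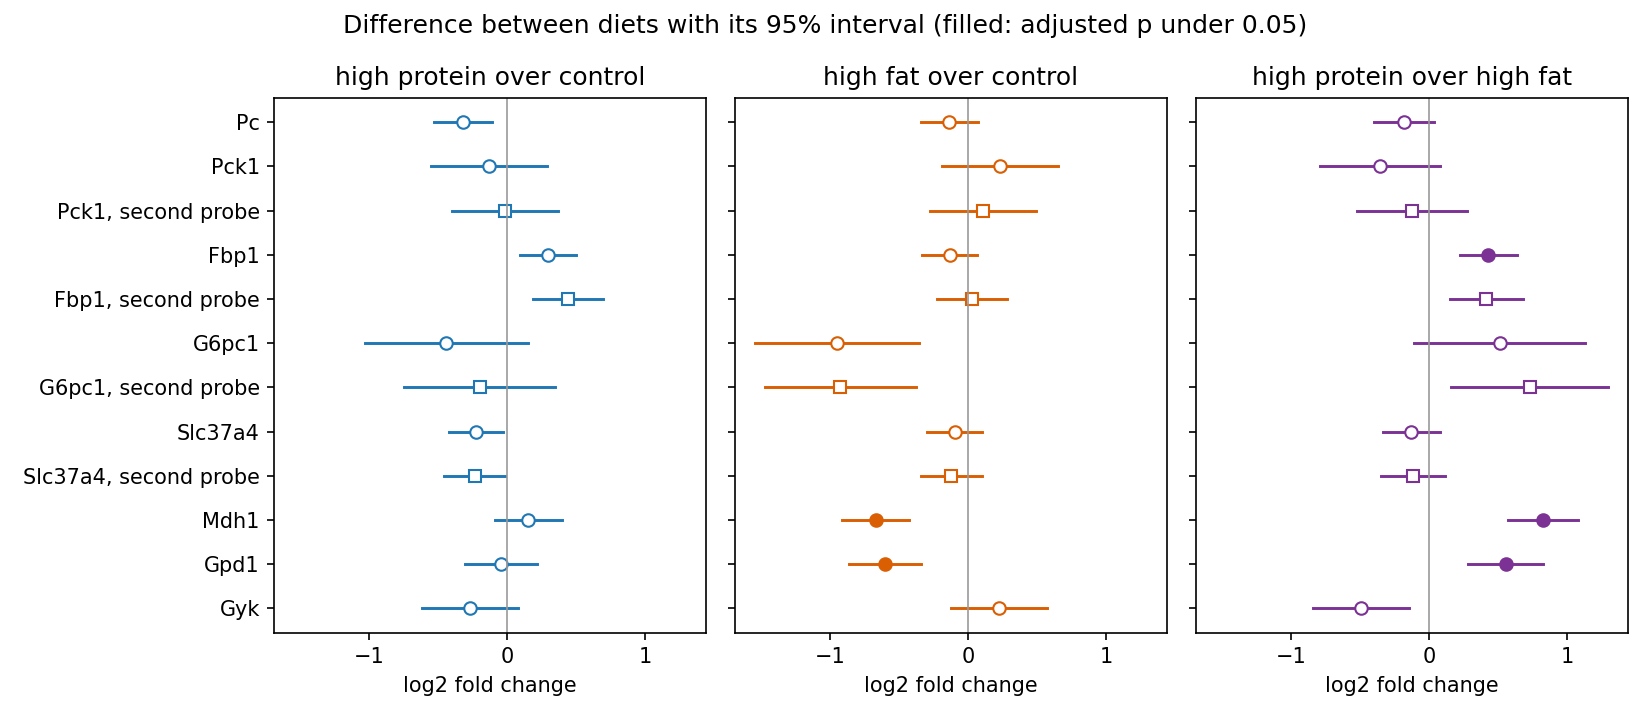
Log2 fold change between diets (x axis) for each gene and probe (y axis), with 95% intervals; circles are the brightest probe, squares the second probe, and filled points have an adjusted p under 0.05. Only Mdh1 and Gpd1 are filled in high fat over control and only Fbp1, Mdh1 and Gpd1 in high protein over high fat; no point is filled in high protein over control.

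Pc encodes pyruvate carboxylase, which makes oxaloacetate from pyruvate in the mitochondrion; its probe lies at chr1:207212627-207212686 (build rn4, as the arrays give it). In control rats the lowest, median and highest log2 ratios were -0.23, 0.089 and 0.39. In high protein rats they were -0.45, -0.22 and 0.001, and in high fat rats -0.23, 0.011 and 0.15. All 6 high protein rats lay below the control median, and 2 of them below every control. The difference of high protein from control was -0.32 ± 0.10 (95% interval -0.53 to -0.11, unadjusted p = 0.00473, adjusted p = 0.155 by limma), so it did not pass over all features. The interval for high fat over control, -0.35 to 0.074, includes 0.

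Pck1 encodes cytosolic phosphoenolpyruvate carboxykinase, the step from oxaloacetate to phosphoenolpyruvate, and is measured at chr3:164017597-164017656 and, by a probe printed 10 times on each array, at chr3:164017138-164017330 (rn4). The first probe ran from -0.76 through a median of -0.26 to 0.14 in controls, from -1.33 through -0.23 to 0.037 in high protein rats and from -0.38 through 0.062 to 0.18 in high fat rats. The diets overlapped throughout, and the spread within a diet was wide. High protein 1 was the lowest rat of all on both probes (-1.33 and -1.19). The 10 spots of the second probe had a pooled standard deviation of 0.051 within an array, and that probe's array values a standard deviation of 0.36 between rats on 1 diet. Repeat spots on 1 array share their labelling and hybridisation, so the first value leaves those steps out. The high fat difference from control was 0.23 ± 0.20 (interval -0.19 to 0.65, adjusted p = 0.641), and 0.10 ± 0.18 by the second probe. The high protein difference was -0.13 ± 0.20 (interval -0.55 to 0.29, adjusted p = 0.798). It had the opposite sign, 0.059, without high protein 1. These intervals allow changes of Pck1 of up to 1.57-fold with the high fat diet.

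Fbp1 encodes fructose-1,6-bisphosphatase, which opposes phosphofructokinase. Its brighter probe lies at chr17:7817936-7817995 and its second at chr17:7813509-7815073 (rn4). By the brighter probe the control rats spanned 0.10 to 0.49 (median 0.29), the high protein rats 0.23 to 0.84 (median 0.63) and the high fat rats -0.006 to 0.44 (median 0.13). Of the 6 high protein rats, 4 were above every control and 4 above every high fat rat, and all 6 were above the high fat median. High fat 1, at 0.44, was the rat that overlapped. High protein over high fat was 0.43 ± 0.10, or 1.35-fold (interval 1.17 to 1.56, adjusted p = 0.0117 by limma; 0.154 with slide as a fixed block). High protein over control was 0.29 ± 0.10 (interval 0.094 to 0.50, adjusted p = 0.171) and did not pass.

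The second Fbp1 probe gave 0.41 ± 0.13 for high protein over high fat, with every high protein rat (-0.029 to 0.47) above every high fat rat (-0.42 to -0.045). Among the features tested, 2.75% were separated in this way with high protein higher, and 2.26% with it lower. The adjusted p of this second probe, by limma over all 25292 kept probes, was 0.0525. Its spot in control 7 was saturated in the scan and read -0.80, below the other 6 controls. With that spot left out, an alternative chosen after seeing the data, the same difference was called (adjusted p = 0.0156). The high fat difference from control was not called by this probe, and turned from 0.026 with the spot to -0.069 without it. Across 19 rats the 2 Fbp1 probes had a Pearson r of 0.79, beside 0.96 for Pck1, 0.97 for G6pc1 and 0.96 for Slc37a4. The Fbp1 difference between the high protein and high fat diets was 0.15 (adjusted p = 0.405) when Cy5 was used without the pool.

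**Figure D2:**
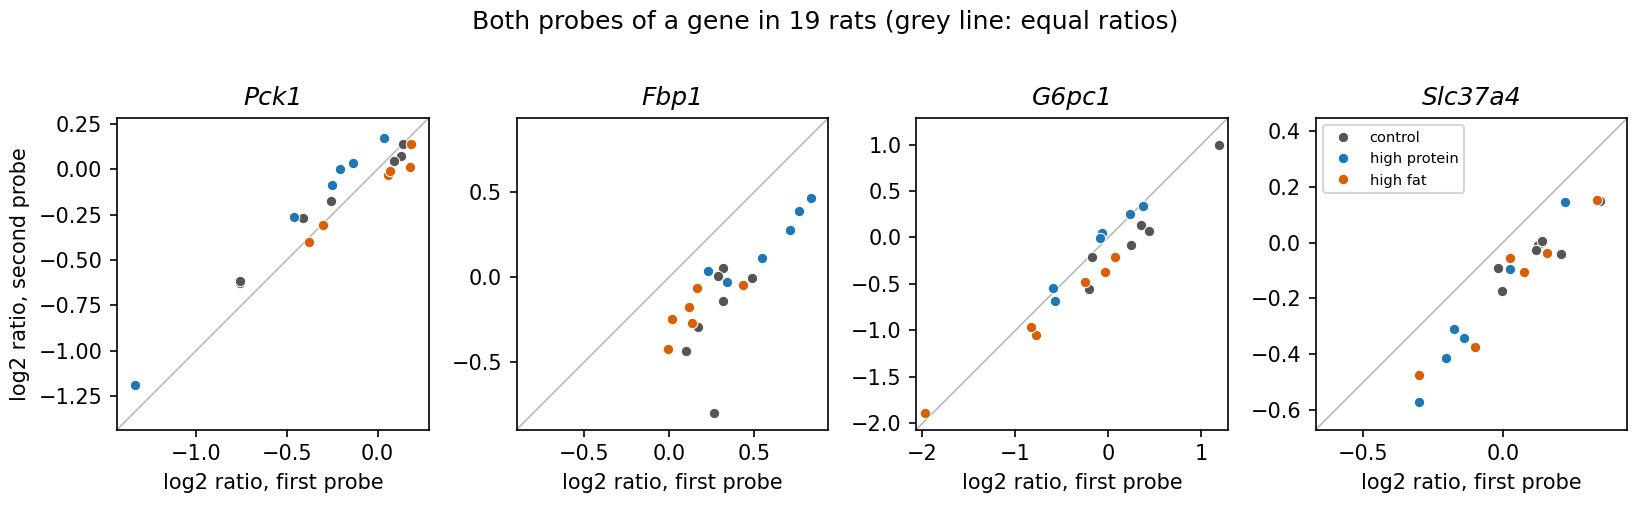
Log2 ratio by the second probe (y axis) against the first (x axis) for the 4 genes with 2 probes, 1 point per rat, coloured by diet; the grey line marks equal ratios. High protein 1 is the low Pck1 point on both axes, and the Fbp1 point far below the rest is control 7, whose second spot was saturated.

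G6pc1 encodes the catalytic subunit of glucose-6-phosphatase, the last step before glucose leaves the cell, and is measured at chr10:90403940-90403999 and chr10:90402888-90402947 (rn4). Control rats ran from -0.21 through 0.35 to 1.19, high protein rats from -0.60 through -0.078 to 0.38 and high fat rats from -1.97 through -0.51 to 0.069. All 6 high fat rats lay below the control median and 4 lay below every control. The groups still overlapped, and the 2 extreme rats were control 5 at the top and high fat 4 at the bottom. High fat over control was -0.95 ± 0.28 (interval -1.54 to -0.36, unadjusted p = 0.00336, adjusted p = 0.0745 by limma), a larger fitted difference than that of any other member, and was not called. The second probe gave -0.93 ± 0.26 (adjusted p = 0.0572). Without high fat 4 the first probe's difference was -0.68 (adjusted p = 0.154). It was called in 2 of 19 omissions of 1 rat: without control 6, whose lymphocyte markers stand apart, it was -1.04 (adjusted p = 0.047), and without high fat 5 it was -1.09 (adjusted p = 0.049). High protein over control was -0.44 ± 0.28 (interval -1.03 to 0.15) by the first probe and -0.20 ± 0.26 (adjusted p = 0.759) by the second. High protein over high fat was 0.51 ± 0.30 (adjusted p = 0.363) by the first and 0.73 ± 0.27 (adjusted p = 0.118) by the second, and neither probe was called in these comparisons.

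Slc37a4 encodes the glucose-6-phosphate translocase that carries the substrate to glucose-6-phosphatase in the endoplasmic reticulum; its probes overlap, at chr8:47369914-47369973 and chr8:47369894-47369952 (rn4). Control rats spanned -0.017 to 0.35 (median 0.13), high protein rats -0.30 to 0.22 (median -0.16) and high fat rats -0.30 to 0.34 (median 0.051). Of 6 high protein rats 4 lay below every control by either probe. High protein over control was -0.23 ± 0.10 (interval -0.42 to -0.027, adjusted p = 0.288) by the brighter probe and -0.24 ± 0.11 by the other, neither called. The interval of high fat over control ran from -0.30 to 0.10.

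Mdh1 encodes cytosolic malate dehydrogenase, which turns malate back into oxaloacetate and works in the malate-aspartate shuttle; its probe lies at chr14:102261426-102261485 (rn4). In controls the lowest, median and highest ratios were -0.15, 0.014 and 0.62. High protein rats gave -0.057, 0.33 and 0.50, and high fat rats -0.65, -0.58 and -0.40. Every high fat rat lay below every rat of the other diets, and the high fat rats had the narrowest spread of the 3 groups (standard deviation 0.10, against 0.30 and 0.19). Such a complete separation, in that direction, was seen in 1.14% of features for high fat below control (0.816% the other way) and in 2.75% for high protein above high fat (2.26% the other way). Expression fell by 37.2% with the high fat diet relative to control (interval of the ratio 0.531 to 0.742, adjusted p = 0.00179 by limma) and was 1.77-fold higher in high protein than in high fat livers (1.49 to 2.11, adjusted p = 0.000255). High protein over control was 0.15 ± 0.12 (interval -0.089 to 0.39) and did not pass. Without control 6 the high fat difference was -0.71 (adjusted p = 0.001).

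Gpd1 encodes cytosolic glycerol 3-phosphate dehydrogenase, which links glycerol 3-phosphate to dihydroxyacetone phosphate in both directions; its probe is given at chr7:138460549-138461244 (rn4). Its mean Cy5 signal lay between 313 and 923 intensity units over the 19 arrays. Control rats ran from -0.40 through -0.028 to 0.16, high protein rats from -0.47 through -0.20 to 0.24 and high fat rats from -0.86 through -0.78 to -0.37. Of 6 high fat rats 5 lay below every control, and high fat 2 (-0.37) lay just above control 6 (-0.40), which made the groups overlap. Expression fell by 34% with the high fat diet relative to control (interval of the ratio 0.551 to 0.79, adjusted p = 0.00781 by limma). High protein over high fat was 1.47-fold (1.22 to 1.77, adjusted p = 0.012, and 0.0937 with slide as a fixed block), with 4 of 6 high protein rats above every high fat rat. High protein over control was -0.046 ± 0.12, with an interval of -0.31 to 0.21. Without control 6 the high fat difference was -0.65 (adjusted p = 0.00362).

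Gyk encodes glycerol kinase, which phosphorylates glycerol taken up by the liver; its probe lies at chrX:72418833-72418892 (rn4). The spot of control 2 was marked as an outlier by the scanner software and dropped, which leaves 6 controls. These ran from -0.22 through -0.022 to 0.18, high protein rats from -0.46 through -0.39 to 0.018 and high fat rats from -0.68 through 0.28 to 0.60. In the high fat group 3 rats lay above every control and 1, high fat 4, lay below every control. High protein over high fat was -0.49 ± 0.17 (interval -0.84 to -0.15, adjusted p = 0.0821 by limma) and was not called. Without high fat 4 it was -0.67 and was called (adjusted p = 0.00168). Keeping the dropped spot, also an alternative chosen after seeing the data, changed no call. High fat over control was 0.23 ± 0.17 (interval -0.12 to 0.57); over the omissions of 1 rat it ran from 0.14 to 0.40, the highest without high fat 4 (adjusted p = 0.071 by limma), and was called in none. High protein over control was -0.27 ± 0.17 (interval -0.62 to 0.078).

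**Figure D3:**
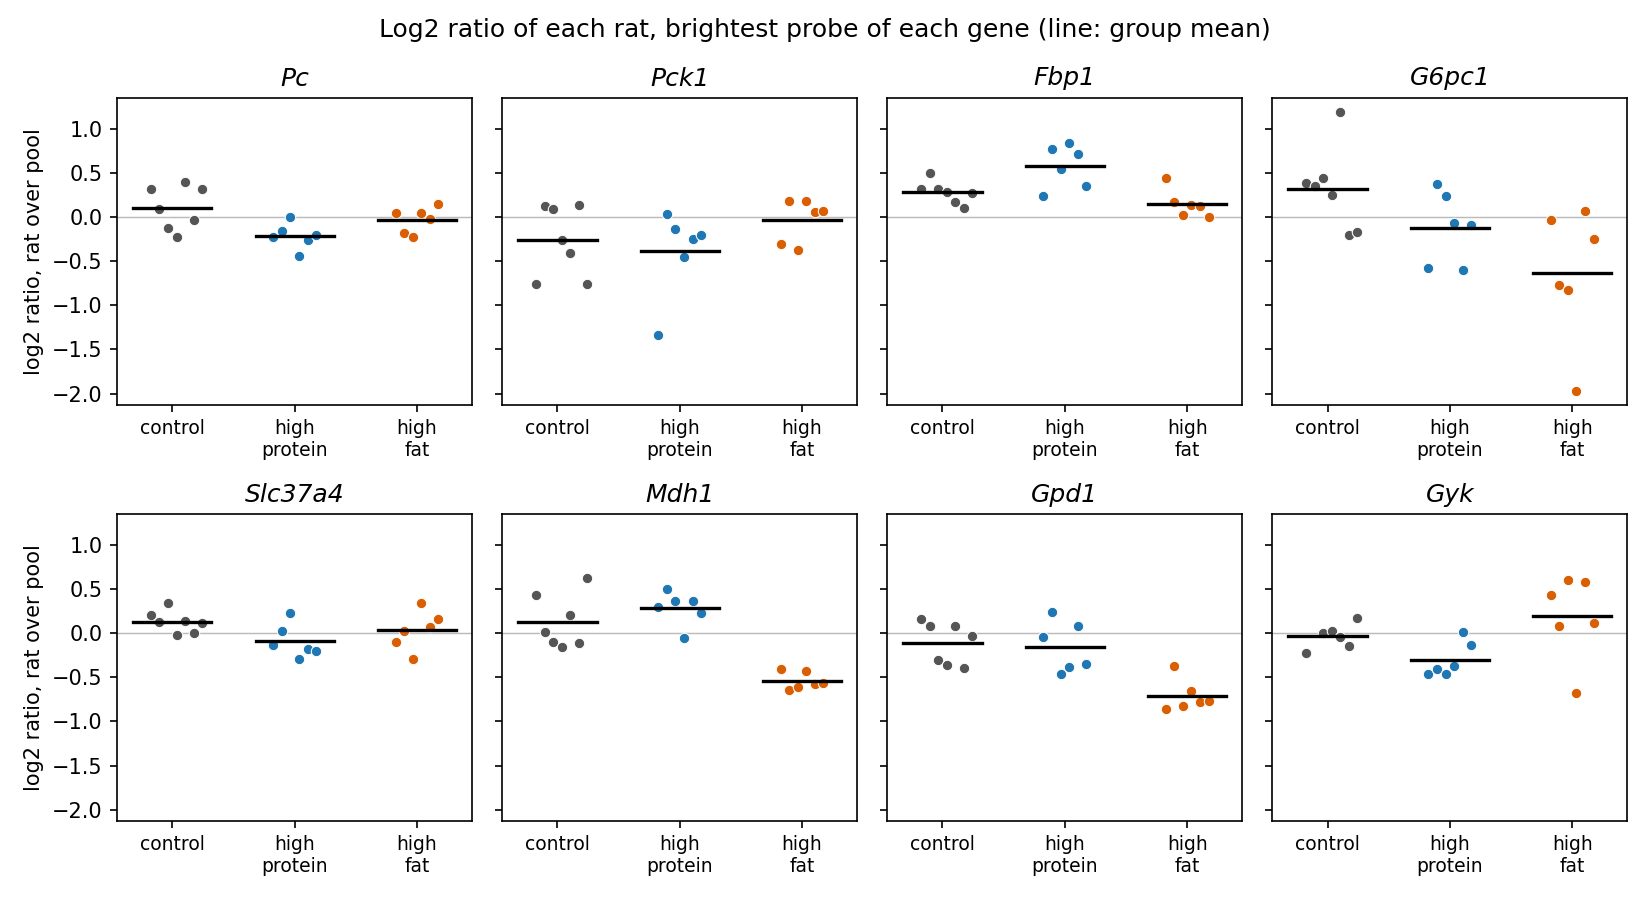
Log2 ratio of rat over pool (y axis) for each rat by diet (x axis), brightest probe of each gene; black lines are group means. High fat Mdh1 values, -0.65 to -0.40, lie apart from both other diets; the lowest G6pc1 and Gyk points, -1.97 and -0.68, are 1 rat, high fat 4.

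The arrays lay on 5 slides, each holding 3 or 4 arrays and at least 2 of the diets, and the slide was tested as a batch. High fat and control rats shared slides 1 (2 against 2), 3 (3 against 1) and 4 (1 against 1). Mdh1 differed there by -0.56, -0.43 and -0.84 and Gpd1 by -0.46, -0.43 and -1.02, so both were lower in high fat rats on each of these slides. G6pc1 differed by -1.10, -1.16 and -0.42. High protein and high fat rats met on slide 4 alone (2 against 1), where the differences were 0.52 for Mdh1, 0.64 for Gpd1 and 0.096 for Fbp1. With slide as a fixed block in the model, both high fat calls against control stayed below the threshold (adjusted p = 0.0165 for Mdh1 and 0.0234 for Gpd1). Of the 3 calls between high protein and high fat, Mdh1 passed (0.58, adjusted p = 0.0453), and Gpd1 (0.54) and Fbp1 (0.45) did not.

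**Figure D4:**
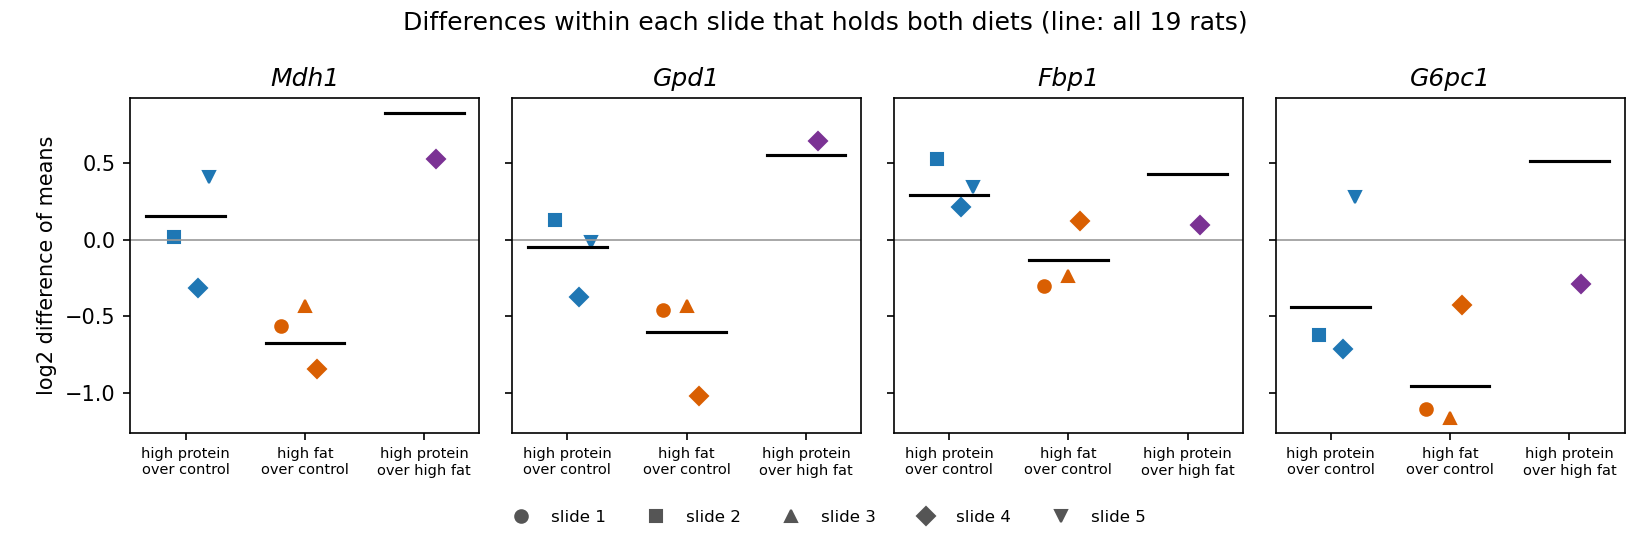
Log2 difference of diet means (y axis) within each slide that holds both diets, for 4 genes and the 3 comparisons (x axis); symbols are slides and black lines the difference over all 19 rats. All 3 slides give Mdh1 and Gpd1 below 0 in high fat over control, from -0.43 to -1.02, the last from 1 rat of each diet on slide 4. High protein over high fat rests on slide 4 alone.

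Some markers moved with the diets as well. Of the 6 hepatocyte markers, Ttr (0.33) and Serpina1 (0.41) were called higher in high protein than in high fat livers, and the other 4 were not called. Of these, Apoa1 was -0.40 (unadjusted p = 0.0158, adjusted p = 0.126 by limma), Tf 0.097, Alb -0.017 and Fgb -0.038, and the median difference of the 6 was 0.04. Lyz2 (0.77), among the 5 Kupffer and myeloid markers measured, was also called higher. The others were not called (Clec4f 0.20, Adgre1 0, Cd68 -0.047 and Cd163 -0.07), and the median of the 5 was 0. Per rat, the median ratio of the hepatocyte markers ranged from 0.22 to 0.50 in high protein, 0.13 to 0.28 in high fat and 0.11 to 0.40 in control rats. Among 5 measured stellate markers Rgs5 was higher than in controls with both diets (0.45 with high protein and 0.60 with high fat). The others were not called with either diet. In the same order, Des was 0.14 and 0.11, Lrat -0.14 and -0.007, Col1a1 0.38 and 0.34, and Col3a1 -0.038 and 0.15. The part of all these markers in the results was not tested.

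Gluconeogenesis and glycolysis share 7 enzymes that work in both directions between phosphoenolpyruvate and glucose 6-phosphate. In high fat against control livers 4 of the 7 were called lower: Gpi (-0.61 ± 0.11), the phosphoglucose isomerase, Gapdh (-0.52 ± 0.08), Eno1 (-0.50 ± 0.07), the enolase, and Pgk1 (-0.42 ± 0.10). The median of the 7 was -0.42, and 1.79% of all features were called lower. Among the 4 called genes, Gpi and Pgk1 overlapped between these diets. In Eno1 the high fat rats spanned -0.43 to -0.29 and the controls -0.11 to 0.36, with no overlap. Gapdh was separated as well, with high fat rats at -0.70 to -0.39 and controls at -0.23 to 0.28. Such a separation was seen in 1.14% of features with high fat lower and in 0.816% with it higher. High protein livers exceeded high fat livers in 6 of the 7, with a median of 0.50, where 3.62% of all features were called higher. For this comparison, here and in the lists below, the diets met on slide 4 alone. With slide as a fixed block its calls over all features fell from 1561 to 343, and values of the list genes under that block are not given. None of the 7 was called between high protein and control.

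Glycolytic enzymes that oppose the pathway, listed together with regulators of such steps, gave 2 calls in 5 for high fat over control. Both were lower, where 1.79% of all features were called lower. Pklr, liver pyruvate kinase, fell by 1.39 ± 0.18 (adjusted p = 0.000197), with high fat rats at -1.70 to -0.90 and controls at -0.39 to 0.81. Such a complete separation was seen in 1.14% of features with high fat lower and in 0.816% with it higher. Gckr, which encodes a regulatory protein of the first step of glycolysis and not its enzyme, fell by 0.53 ± 0.13. In high protein over high fat livers Pklr was higher by 1.25 and no other of the 5 was called; in high protein over control none was.

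Amino acids and lactate supply carbon to the route through pyruvate. Of 9 genes of this entry, Sds, serine dehydratase (1.41 ± 0.30, adjusted p = 0.0453), and Gpt, alanine aminotransferase (0.71 ± 0.14), were higher in high protein than in control livers. Over all features 0.274% were called higher there. Against high fat livers Sds (1.28), Gpt (0.59) and the lactate dehydrogenase gene Ldha (0.53) were higher, where 3.62% of all features were called higher. None of the 9 was called between high fat and control, where Sds differed by 0.13 ± 0.30. Of the 6 measured genes of the malate-aspartate shuttle and its carriers, Got1, cytosolic aspartate aminotransferase, was higher in high protein livers by 0.94 ± 0.17 over control and 1.19 ± 0.18 over high fat. Got2, its mitochondrial counterpart, was higher over high fat by 0.20 ± 0.06. Mdh2, the mitochondrial malate dehydrogenase, differed by 0.006 ± 0.061 between high fat and control (interval -0.12 to 0.14), where Mdh1 fell; the difference between the 2 genes was not tested.

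Of 5 measured genes of glycerol handling, 1 was called in high fat over control and 1 in high protein over high fat. None was called in high protein over control. Over all features 3.63%, 7.02% and 0.414% were called in these comparisons, in that order. Aqp9, the glycerol channel of the hepatocyte, was higher in high fat than in control livers by 0.41 ± 0.11 (adjusted p = 0.0419). It was 0.32 ± 0.11 in high protein over control (adjusted p = 0.187 by limma) and -0.087 in high protein over high fat, neither called. Gpam, which starts glycerolipid synthesis from glycerol 3-phosphate, was higher in high protein than in high fat livers by 0.91 ± 0.25. Of 7 measured isoforms and paralogs of the members, Fbp2, the muscle type bisphosphatase, was called higher with the high fat diet (0.47 ± 0.09, adjusted p = 0.0054). Among all features 1.84% were called higher there. Fbp2 was 0.32 ± 0.09 in high protein over control (unadjusted p = 0.00245, adjusted p = 0.126 by limma) and -0.14 in high protein over high fat, neither called. Gpd2, the mitochondrial glycerol 3-phosphate dehydrogenase, was not called in high fat over control (-0.24 ± 0.10, adjusted p = 0.231), nor were Pck2 (0.14 ± 0.12) and G6pc3 (-0.045 ± 0.053). Gpd1l was not measured. None of the 3 genes of glucose exit (Slc2a2, G6pc3 and Slc37a4) was called in any comparison.

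A list of hormone and transcription regulators, with some genes that respond to them, had 20 measured genes. Against a share of 1.79% over all features, 2 of these were called lower in high fat than in control livers. They were Mlxipl (-0.70 ± 0.15), which encodes the carbohydrate response factor ChREBP, and Srebf1 (-0.80 ± 0.19), which drives lipogenic genes. Both were higher in high protein than in high fat livers (0.55 and 0.95), as were 3.62% of all features. So was the glucocorticoid-responsive gene Tat (1.03), which encodes an enzyme of amino acid breakdown and not a regulator. Foxo1, a factor that insulin holds back, differed by -0.033 in high protein over control, by -0.049 in high fat over control and by 0.017 between the high protein and high fat diets, and the coactivator gene Ppargc1a did not pass the brightness filter. None of the 20 genes was called between high protein and control.

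**Figure D5:**
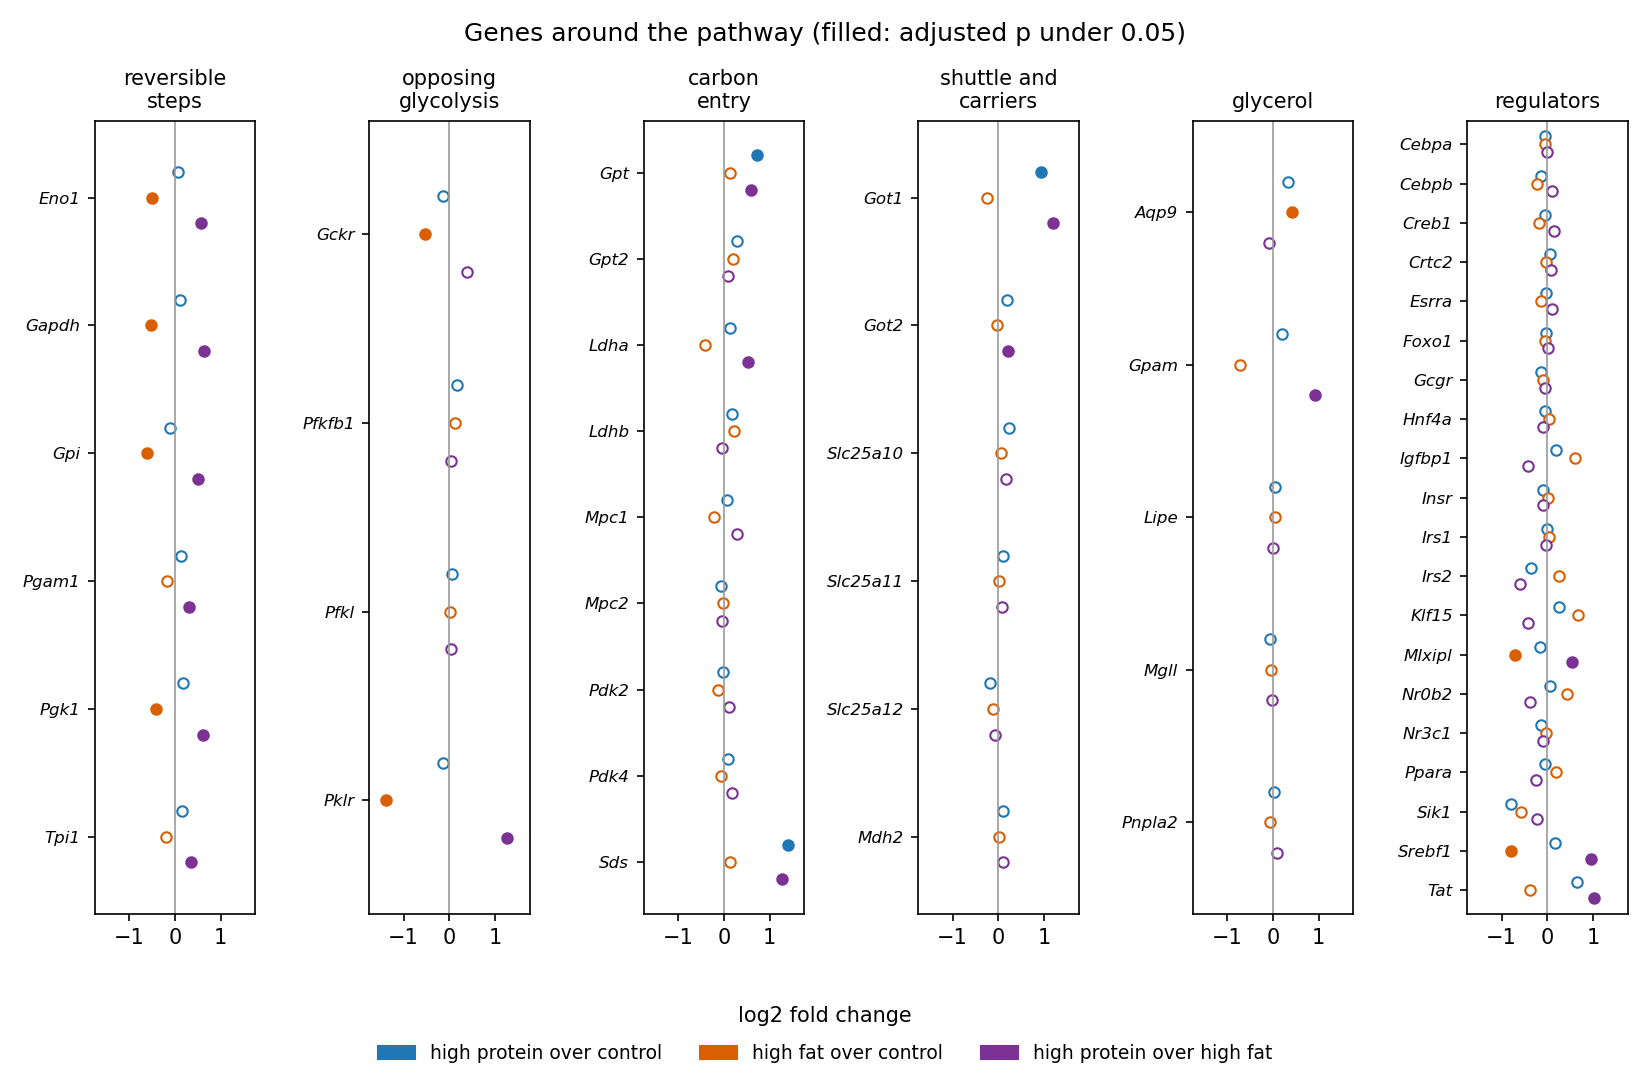
Log2 fold change (x axis) of genes around the pathway (y axis) in 6 groups, coloured by comparison; filled points have an adjusted p under 0.05. Filled high fat over control points lie below 0 in the reversible steps, opposing glycolysis and regulators, from -0.42 to -1.39; filled high protein points lie above 0 in the carbon entry and shuttle groups.

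The genes that varied with the called members from rat to rat were also listed. Over 19 rats, after each diet's mean was removed, the 5 named genes closest to Mdh1 among 10766 were Eno1 (Pearson r = 0.90), Mtor (0.87), Ptdss2 (0.86), Pdk1 (0.85) and Mfsd13a (0.84). Closest to Gpd1 were Lman1 (0.78), Tcaim (0.76), Phkb (0.72), Mapt (0.72) and Rfk (0.71), and closest to Fbp1 were Cyp17a1 (0.77), Cpt2 (0.71), Ptger3, Zfp644 and Sult2a6 (0.70 each). Among the members, r was 0.78 for Mdh1 with Pc and 0.52 for Mdh1 with Gpd1. Gyk has a value in 18 rats; its r over them was 0.46 with G6pc1, but -0.13 without high fat 4, the rat lowest in both genes. Slc37a4 and Gyk ran opposite to each other (-0.60 over 18 rats, and -0.42 without high fat 4). These coefficients rank many genes over the same arrays and pool, and are given as description only.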

How the data were processed

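The authors' scans were deposited as spot and local background intensity from Agilent Feature Extraction 10.5.1.1, and place probes on rat build rn4, per the file headers. The authors also deposited log2 values for 22764 features per array, with a median of 8.20 in control 1, the only array for which it was taken. The steps behind these values are not given in the sources used here, and the values served as an alternative. Their correlation with the centred log ratios of the same array lay between 0.91 and 0.976.

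Mean signals were background-corrected with normexp (offset 50) and log2 Cy5/Cy3 ratios were loess-normalised within arrays, with control spots at weight 0. On 5 arrays 40 spots whose local background exceeded their signal by over 50 were dropped, as were spots marked as outliers. Spots of 1 probe were averaged. Probes marked well above background in Cy5 on 6 or more of 19 arrays were kept (25292), with 1 probe of highest mean signal per named gene, leaving 22244 features. Of 41012 non-control probes 10835 were named by RefSeq accession (GRCr8 table), 5196 by symbol, 3478 by synonym and 166 by the file's name alone.

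One model over the 3 diets was fitted in limma 3.58.1 (R 4.3.3; 16 residual and 3.25 prior degrees of freedom), two-sided, with Benjamini-Hochberg adjustment over all features and a threshold of 0.05. Second probes came from the same model over all kept probes. The code was tested on simulated data. Per the labels the rats are separate animals, and no pairing is given; 19 arrays limit the precision. Alternatives covered background, channel, scaling, filter, probe choice, variance model, slide and replicate number, and each rat was left out in turn.

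The members, lists, tests and the rule for named genes were chosen with earlier results of these data known. That rule names all 8 members with every probe, the called genes of the lists, 12 further pathway genes whatever their values (some gene results are not reported here), and the 5 named genes most correlated with each called member. Annotation of exons or untranslated regions in rn4, and the probes' own sequences, were not used here.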

Additional observations from a re-analysis of the deposited data

Results flagged for a closer look

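Pck1 in high protein 1 stood apart from the other 5 rats on its diet by both probes. Its log2 ratio was -1.333 by the brighter probe, with the nearest rat at -0.458, and the gap to that rat made up 0.639 of the group's range. By the probe printed 10 times the value was -1.19, with the nearest rat at -0.261 and a gap of 0.682 of the range. Both exceed Dixon's 95% critical value for 6 rats. Of 36 groups tested (12 probes in 3 diets) 2 passed, and chance alone sets apart about 1 group in 20; the 2 are the same gene in the same rat.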

How the results depend on the processing

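Over 15 alternatives and 19 omissions of 1 rat, Mdh1 and Gpd1 stayed called lower in high fat than in control livers in every one (alternatives -0.709 to -0.532 and -0.70 to -0.544). In high protein over high fat, Mdh1 was called in all 15 alternatives, Gpd1 in 14 and Fbp1 in 13, and all 3 in each of the 19 omissions. With slide as a fixed block that count was 1 of 8 members in place of 3; with slide as a random block (correlation 0.0318) it was 3. No member was called in high protein over control under any setting. The number of members called ranged from 2 to 3 (high fat over control) and from 3 to 4 (high protein over high fat) when 1 rat was left out. Signs that turned belonged to uncalled values: in high protein over control, Gpd1 was 0.017 with the deposited values, 0.017 without high protein 3 and 0.001 without high protein 4, and Pck1 was 0.059 without high protein 1 (over the 19 omissions -0.125 to 0.017 and -0.215 to 0.059); the second Fbp1 probe was -0.069 in high fat over control without its saturated spot. Apart from the removed rats and spot, the cause was not tested. Quantile scaling of average intensities leaves log ratios as they are and so tested nothing.

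Rats with the same number in different diets did not vary together (mean correlation -0.0102 over 18 pairs, from -0.216 to 0.11; 0.00123 over 102 unlike pairs), and 5 of 19 rats correlated best with a like number, so the numbers were not used. With the replicate block, 0, 2 and 3 members were called in the 3 comparisons, as without it, and over all features 162 in place of 92 in high protein over control.

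Counts over all features moved more than the members' calls. Against 92, 807 and 1561 calls, the alternatives gave 20 to 162, 443 to 964 and 343 to 2028, the lowest each time with slide as a fixed block. Leaving out 1 rat gave 17 (without high protein 6) to 375 (without control 7), 605 to 913 and 1147 to 2191. The share of higher calls in high protein over control, 66.3%, ran from 47.3% with normexp fitted on every spot to 89.6% with the deposited values; between high protein and high fat it was 51.6%, and 63.6% with slide as a fixed block. A single probe stands for Pc, Mdh1, Gpd1 and Gyk.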

Other observations

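High fat 4 held the lowest G6pc1 (-1.968) and the lowest Gyk (-0.677) of its group and the highest Slc37a4 (0.338), while its Mdh1 (-0.429) and Gpd1 (-0.652) lay inside the range of the other high fat rats. Its array had a standard deviation of log ratios of 0.29, the largest after control 6. Within the control group, control 5 held the highest G6pc1 (1.188) and Pc (0.394), and control 7 the highest Mdh1 (0.622) and a low Pck1 (-0.759), shared with control 1.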
